A study of Mus musculus with 8 samples.

Results

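The genes described here are the collagens and the enzymes that remodel collagen matrix in the liver of diabetic mice. They were chosen by symbol, as the collagen chains (Col followed by type and chain), the matrix metalloproteinases (Mmp), the tissue inhibitors of metalloproteinases (Timp) and lysyl oxidase with its relatives (Lox and Loxl). The table of 21532 genes held 62 of them, with 36 collagen chains, 18 metalloproteinases, 3 inhibitors and 5 lysyl oxidases. The RNA came from livers of male db/db mice, a strain that grows obese and diabetic for want of a functional leptin receptor. From 8 weeks of age, 4 mice were given the control and 4 the AF1 peptide, at 5 mg/kg body weight by retro-orbital injection 2 times per week for 5 weeks. AF1 peptide is a synthetic piece of the estrogen receptor ERα, joined to the cell-penetrating TAT sequence. Both groups shared the db/db genotype and the male sex, so no lean or untreated liver was compared, and each mouse gave 1 library.

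Collagens are triple-helical proteins of the extracellular matrix. Fibrillar collagens such as types I, III and V form the fibres that accumulate in liver fibrosis, and they are made mainly by hepatic stellate cells and portal fibroblasts. Type IV collagen forms the network of basement membranes, type VI forms beaded microfibrils, and type XVIII is a basement membrane proteoglycan that hepatocytes make in quantity. Lysyl oxidases cross-link collagen and elastin, metalloproteinases cleave matrix proteins, and TIMPs inhibit the metalloproteinases.

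The values were normalized counts, that is, reads per gene divided by a size factor of the library, and values per mouse are always given in the order of replicates 1 to 4. The libraries held 23031880 to 45117528 reads. Among the 8 mice, AF1 peptide replicate 1 stood apart from the other 7. It lay at one end of the first principal component, which held 39.3% of the variance, with a coordinate of -74.2 against -2.33 to 21.8 in the others. Hepatocyte markers were abundant in every mouse, with Alb at 1224159.7 or more, while the 10 Kupffer cell and macrophage markers summed to 2581 in this mouse, 5611 to 7047 in the control mice and 6371 to 6814 in the other AF1 peptide mice. Fold changes are therefore also given without this mouse, and without it 3 of the 49 tested genes below moved by more than 1.5-fold (Col1a1, Col22a1 and Mmp12).

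AF1 peptide and control livers were compared gene by gene for the 49 members whose normalized count averaged 10 or more, and differences are log2 fold changes of AF1 peptide over control on the log2(normalized count + 1) scale, with the SE from limma after the ± sign. With all 8 mice, 0 members were called higher in AF1 peptide livers and 1, Col13a1, was called lower, where a call needs an unadjusted p under 0.05 in limma and a change of more than 1.3-fold. Over all 15989 genes tested, 1.79% were called higher and 1.9% lower. The groups overlapped for each of the 49 members, while 3.9% of all genes tested had groups that did not overlap. The limma test gave an unadjusted p under 0.05 to 1 member (2.04%) and to 6.19% of all genes tested. edgeR and DESeq2 on the recovered reads also gave it to 1 member each, against 6.48% and 6.3% of all genes tested. The smallest Benjamini-Hochberg adjusted p of limma among the members was 0.763. The median log2 fold change was 0.0022 over the members and -0.0083 over all genes tested, with 26 members above 0 and 23 below. With the libraries scaled to equal totals, these medians were -0.088 and -0.099, and 14 members were above 0 and 35 below.

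For 33 of the 49 members the 95% interval of the fold change lay within 2-fold in both directions, and for 16 it reached beyond, among them Col1a1, Col1a2, Lox, Mmp12 and Timp1. The interval was narrowest for Col5a3, from -0.33 to 0.20 on the log2 scale, and widest for Col22a1, from -2.19 to 2.27. Without AF1 peptide replicate 1, 3 members (Col27a1, Col6a1 and Col6a5) were called higher and Col13a1 lower, against 2.86% and 3.07% of all genes tested. An unadjusted p under 0.05 was then reached by 5 members (10.2%) and by 10.1% of all genes tested, and the smallest adjusted p among the members was 0.473 (limma, Benjamini-Hochberg). The median of the members moved to 0.15, while that of all genes tested was -0.0036.

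**Figure D1:**
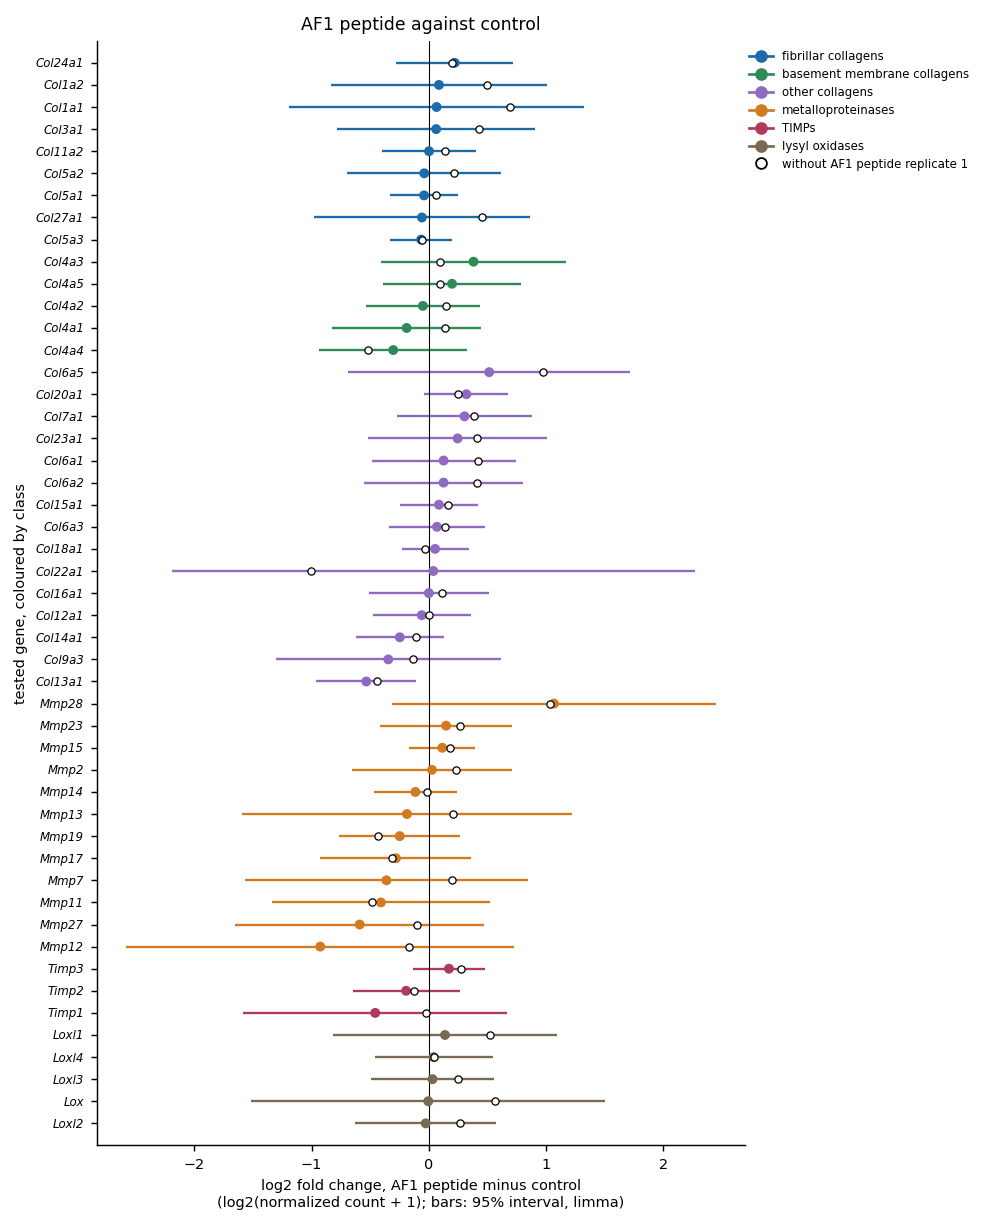
Log2 fold change of each tested gene, AF1 peptide minus control on the log2(normalized count + 1) scale (filled points, with the 95% interval from limma as bars, 4 mice per group), and without AF1 peptide replicate 1 (open points). The intervals of 48 of the 49 genes include 0, with Col13a1 as the exception, and 34 of the open points lie above 0.

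Per kilobase of exon, the members spanned more than 3 orders of magnitude in these livers. Col18a1, which encodes the core protein of type XVIII collagen, was the most abundant at 2619 normalized counts per kilobase, followed by Col5a3, a type V chain, at 1369. They made up 43.99% and 22.99% of the summed collagen level per kilobase. Mmp14, the membrane-type metalloproteinase that activates pro-MMP2, came next at 444, then Col27a1 at 338 and Col3a1 at 283. The type I chains Col1a1 and Col1a2 stood at 179 and 169, close to Timp3 at 183 and the type IV chains Col4a2 and Col4a1 at 158 and 158. At the low end, 23 members were under 5 per kilobase, among them the collagenase Mmp8 at 0.993, the gelatinase Mmp9 at 1.02 and Lox itself at 2.19.

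**Figure D2:**
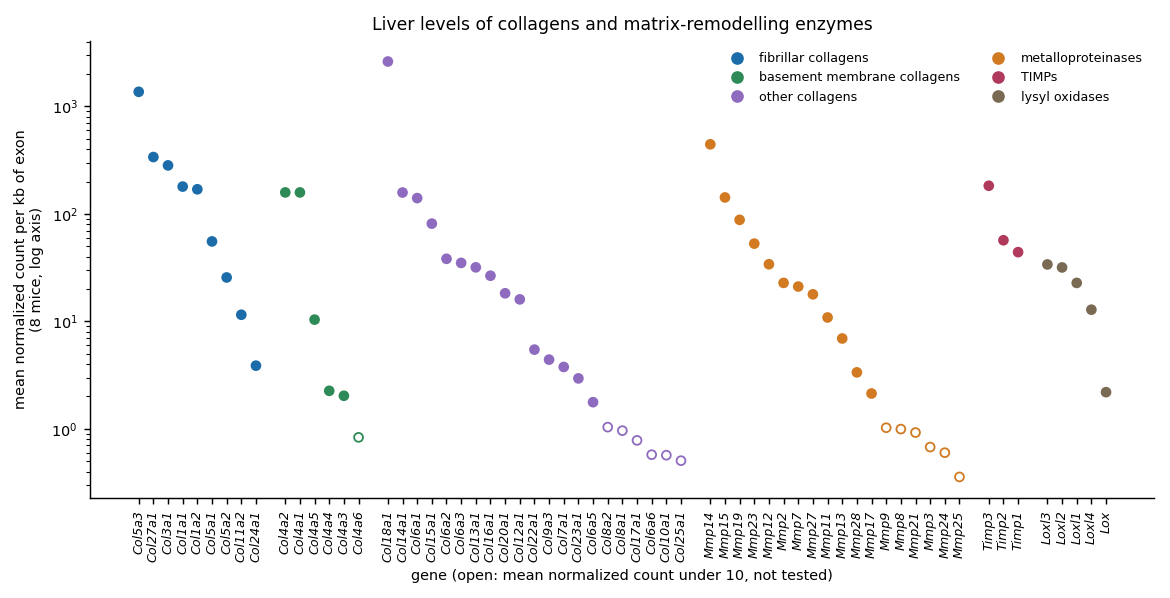
Mean normalized count per kilobase of exon over the 8 mice (log axis) for the 62 genes, ordered within their class, with open points for the 13 genes below the filter. Col18a1 and Col5a3 lie above 1000 per kilobase, and 23 genes lie below 5.

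A gene was too low to test for 13 members. They were Col4a6, Col6a6, Col8a1, Col8a2, Col10a1, Col17a1, Col25a1, Mmp3, Mmp8, Mmp9, Mmp21, Mmp24 and Mmp25, and their highest value in any mouse was 14.7, for Col4a6 in AF1 peptide replicate 4. Mmp8 had 4.12, 4.92, 0 and 2.51 in the control mice and 0.933, 0, 4.94 and 1.84 in the AF1 peptide mice. Mmp9 had 0.824, 0.985, 4.32 and 5.86 in the control mice and 3.73, 3.65, 6.59 and 0 in the AF1 peptide mice. Both are known from neutrophils, and at 0 to 8 reads per mouse no difference between the groups was detectable for either. The chains Col2a1, Col6a4, Col9a1, Col9a2, Col11a1, Col19a1, Col26a1 and Col28a1 and the genes Mmp1a, Mmp1b, Mmp10, Mmp16, Mmp20 and Timp4 were not analysed here.

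The 9 fibrillar chains had a median log2 fold change of 0.0022, with 5 above 0 and 4 below, and 0 were called. With equal totals the median was -0.088, with 1 above 0 and 8 below, where the median of all genes tested was -0.099. With edgeR or DESeq2, 7 were above 0 and 2 below. Col1a1, the α1 chain of type I collagen, had a normalized count of 899, 1403, 866 and 544 in the control mice and 251, 818, 1951 and 1782 in the AF1 peptide mice. AF1 peptide replicate 1 was the lowest of the 8 mice and replicates 3 and 4 were the highest, so that the values spanned 7.77-fold within the AF1 peptide group and 2.58-fold within the control group. The means were 928 ± 355 in control and 1201 ± 806 in AF1 peptide mice (SD, n = 4), with a log2 fold change 0.067 ± 0.566. Since whole livers were sequenced, fewer cells of a type and less RNA per cell cannot be told apart.

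Col1a2, Col3a1, Col5a1 and Col5a2 had the same mice at either end. Col1a2, the partner chain of type I collagen, had 761, 1144, 831 and 556 in the control mice and 358, 665, 1424 and 1508 in the AF1 peptide mice (log2 fold change 0.087 ± 0.415). Col3a1, the chain of type III collagen, had 1465, 1881, 1396 and 1041 in the control mice and 686, 1118, 2335 and 2662 in the AF1 peptide mice (log2 fold change 0.063 ± 0.382). Col5a2, which joins type V trimers within type I fibrils, had 163, 203, 165 and 132 in the control mice and 94.3, 121, 249 and 229.6 in the AF1 peptide mice (log2 fold change -0.039 ± 0.297). In each of these genes AF1 peptide replicate 1 was below every control mouse and replicates 3 and 4 were above every control mouse. Without replicate 1 the differences were 0.69 ± 0.321 for Col1a1, 0.50 ± 0.282 for Col1a2, 0.43 ± 0.268 for Col3a1 and 0.21 ± 0.237 for Col5a2, and none of the 4 was called.

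Col1a1 and Col1a2 supply the chains of type I collagen in a ratio of 2 to 1 in the protein. Their level per kilobase was in a ratio of 0.883 to 1.11 in the control mice, 0.632 in AF1 peptide replicate 1 and 1.07 to 1.24 in the other AF1 peptide mice. The ratio of Col3a1 to Col1a2 per kilobase varied less, from 1.58 to 1.85 over the 8 mice, while Col3a1 itself spanned 3.88-fold and Col1a2 4.21-fold within the AF1 peptide group.

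Col27a1, a fibrillar chain best known from cartilage, was among the most abundant, and its fold change turned from below 0 to a call above 0 when AF1 peptide replicate 1 was left out. Its normalized count was 2215, 2082, 3018 and 2433 in the control mice and 799, 2986, 4145 and 2908 in the AF1 peptide mice. The value of AF1 peptide replicate 1 was the lowest of the 8, and the other AF1 peptide mice lay above 3 of the 4 control mice. With all mice the difference was -0.059 ± 0.416. Without replicate 1 it was 0.45 ± 0.153 (limma, Benjamini-Hochberg adjusted p = 0.473).

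Col5a3, a type V chain of lower abundance in most tissues, behaved differently from Col5a2. It had 8047, 9504, 9479 and 7304 in the control mice and 8015, 7625, 8875 and 8149 in the AF1 peptide mice, and the groups differed little (log2 fold change -0.065 ± 0.118, or -0.057 without replicate 1). For this gene AF1 peptide replicate 1 lay inside the range of the control mice. Col5a1, the main type V chain, had 497, 461, 479.9 and 442 in the control mice and 369, 429, 545 and 503 in the AF1 peptide mice (log2 fold change -0.041 ± 0.130, or 0.062 without replicate 1), and here replicate 1 was again the lowest and replicates 3 and 4 the highest. Col11a2, a type XI chain, averaged 71.96 ± 2.99 in control and 73.2 ± 15.3 in AF1 peptide mice (log2 fold change 0.0022 ± 0.181, or 0.14 without replicate 1). Col24a1 averaged 25.7 ± 5.93 in control and 29.6 ± 1.56 in AF1 peptide mice (log2 fold change 0.22 ± 0.225, or 0.20 without replicate 1), and it was the only fibrillar chain apart from Col5a3 for which AF1 peptide replicate 1 was not the lowest mouse.

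**Figure D3:**
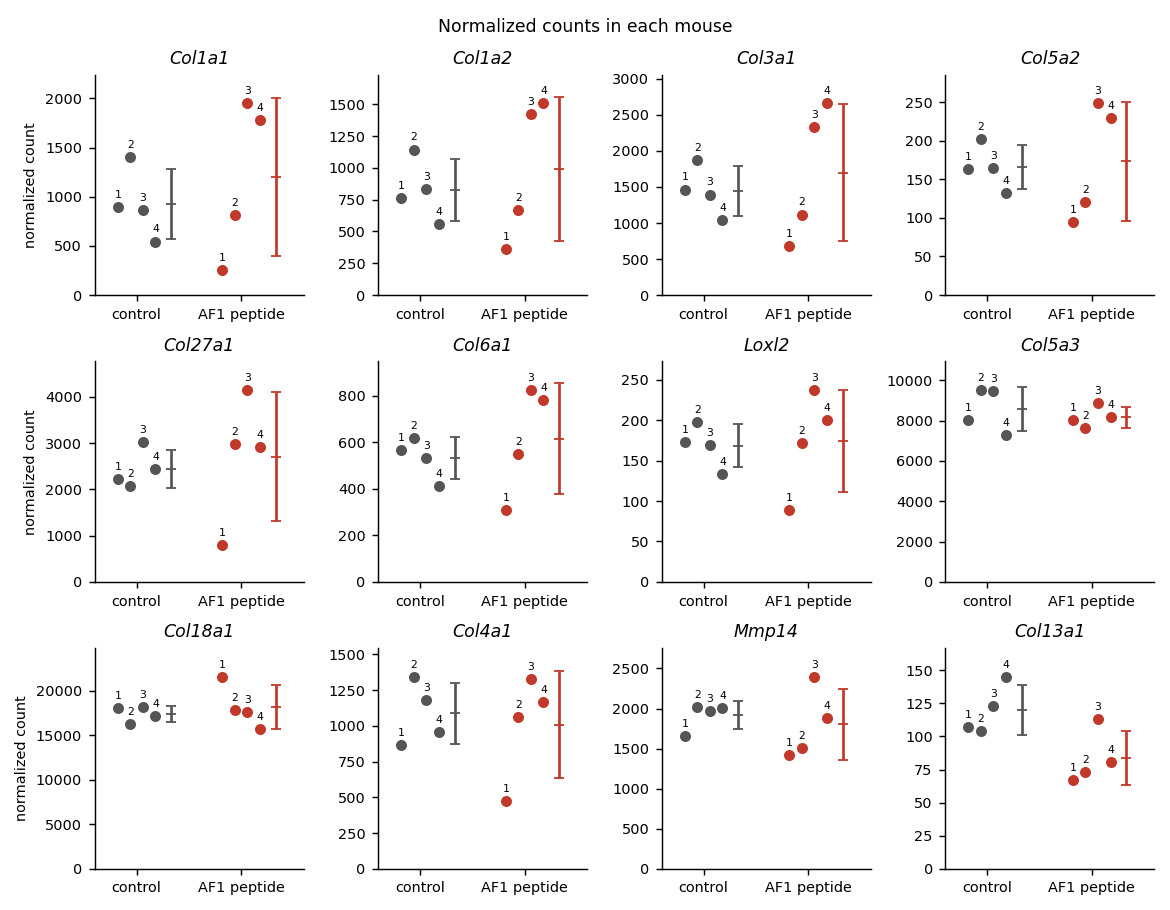
Normalized count of 12 genes in each mouse (points numbered by replicate, axis from 0) with the mean and SD of each group of 4. In the panels of Col1a1, Col1a2, Col3a1, Col5a2, Col6a1 and Loxl2 AF1 peptide replicate 1 is the lowest mouse and replicates 3 and 4 the highest. The panels of Col27a1, Col5a3, Col18a1, Col4a1, Mmp14 and Col13a1 lack this order.

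This order, with AF1 peptide replicate 1 lowest and replicates 3 and 4 the 2 highest of the 8 mice, was looked for after the values had been seen. It was found in 9 of the 49 members (18.4%), which were Col1a1, Col1a2, Col3a1, Col5a1, Col5a2, Col6a1, Col6a2, Col6a5 and Loxl2, and in 1.55% of all genes tested. AF1 peptide replicate 1 alone was the lowest mouse for 25 members (51.0%), against 23.4% of all genes tested, and the highest for 6 members (12.2%), against 25.9%. AF1 peptide replicate 3 was the highest mouse for 18 members (36.7%), against 15.5% of all genes tested. The SD on the log2 scale was larger in the AF1 peptide group for 39 of 49 members (79.6%) and for 67.6% of all genes tested. Without replicate 1 it was larger for 30 members (61.2%), against 48.6%.

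**Figure D4:**
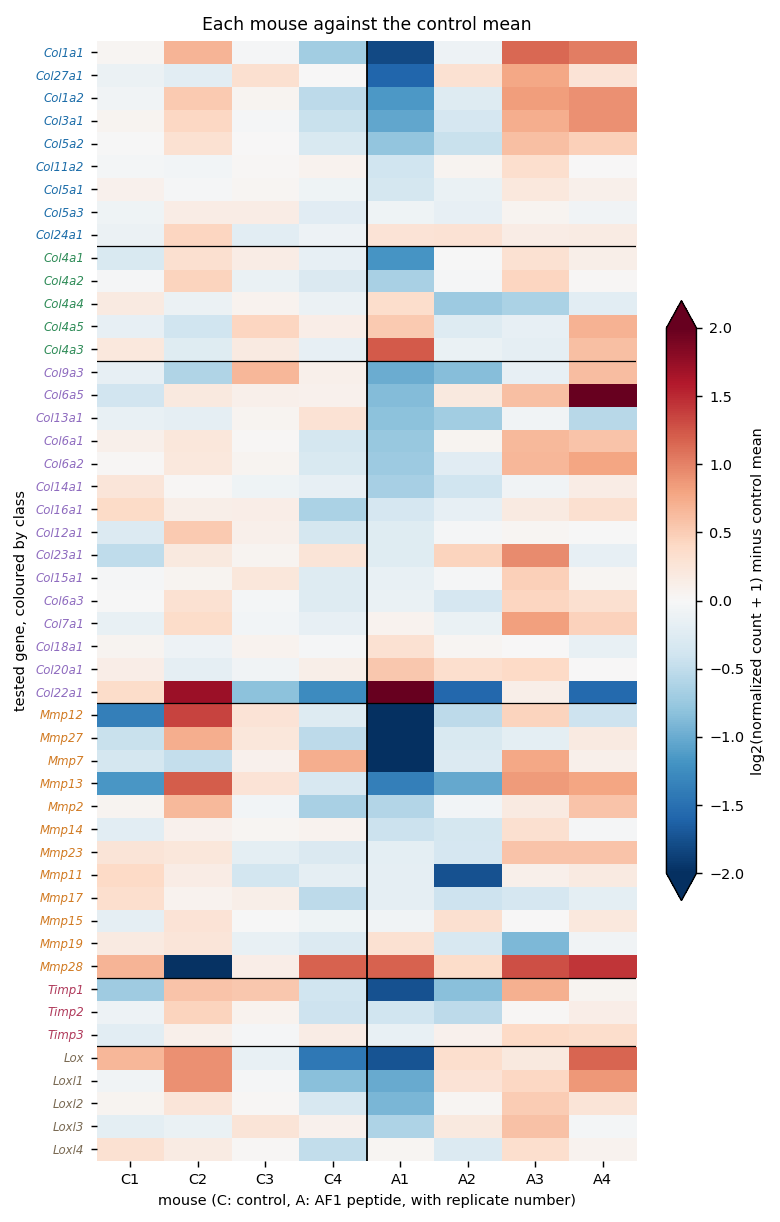
Deviation of each mouse from the control mean on the log2(normalized count + 1) scale for the 49 tested genes, with genes in rows grouped by class (fibrillar, basement membrane, other collagens, metalloproteinases, TIMPs, lysyl oxidases) and mice in columns (C, control; A, AF1 peptide). The column of AF1 peptide replicate 1 (A1) is blue for most rows, with its lowest of 8 values in 25 genes, and that of replicate 3 (A3) is the highest in 18.

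The sequence before the annotated start is shown for Col1a2, Col3a1 and Col6a1, since these genes of 3 collagen types shared that order of mice. The bases come from RefSeq on build GRCm38.p6, in which 47 of the 62 members were matched and Col12a1, Col14a1, Col1a1, Col22a1, Col4a3, Col5a2, Col9a3, Lox, Loxl1, Loxl2, Loxl3, Mmp17, Mmp19, Mmp2 and Mmp9 were missing. Each run holds 250 bases and ends just before the start. Capitals mark matches on either strand to the TATA box motif TATAAA, the CCAAT box motif CCAAT or the GC box motif GGGCGG, none of which overlap here.
Col1a2, chr6:4505368-4505617 (GRCm38.p6, + strand): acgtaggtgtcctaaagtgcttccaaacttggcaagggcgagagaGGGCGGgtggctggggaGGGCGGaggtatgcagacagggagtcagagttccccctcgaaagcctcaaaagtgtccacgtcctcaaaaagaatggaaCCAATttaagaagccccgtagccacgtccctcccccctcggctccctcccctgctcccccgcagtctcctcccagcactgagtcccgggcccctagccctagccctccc
Col3a1, chr1:45311288-45311537 (GRCm38.p6, + strand): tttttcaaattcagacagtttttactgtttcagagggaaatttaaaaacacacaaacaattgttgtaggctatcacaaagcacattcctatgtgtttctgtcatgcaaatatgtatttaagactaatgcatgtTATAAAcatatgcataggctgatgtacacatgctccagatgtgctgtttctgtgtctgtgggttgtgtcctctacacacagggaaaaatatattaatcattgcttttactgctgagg
Col6a1, chr10:76726045-76726294 (GRCm38.p6, - strand): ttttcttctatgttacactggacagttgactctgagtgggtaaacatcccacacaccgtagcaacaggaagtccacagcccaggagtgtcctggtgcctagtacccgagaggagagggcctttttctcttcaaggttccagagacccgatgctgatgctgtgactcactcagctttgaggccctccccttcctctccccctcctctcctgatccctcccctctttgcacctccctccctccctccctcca
The Col1a2 stretch held 2 GC boxes and 1 CCAAT box, 105 to 109 bases before the start, and 62.0% of its bases were G or C. The Col3a1 stretch held 1 TATAAA, 112 to 117 bases before the start, with 35.2% G or C. The Col6a1 stretch held none of the 3 motifs and had 56.0% G or C. Of all 32851 promoters of this length, 12.4% held TATAAA, 33.8% CCAAT and 32.7% GGGCGG, and of the 52 promoters of the members 17.3%, 30.8% and 55.8%. A match describes the letters in the window and not a bound site.

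The basement membrane class held the 6 chains of type IV collagen, of which 5 were tested and 0 were called. The median log2 fold change was -0.051, with 2 above 0 and 3 below. Col4a1 and Col4a2, which form the common type IV trimer, were the abundant ones. Col4a1 had 865, 1341, 1184 and 959 in the control mice and 473, 1061, 1328 and 1168 in the AF1 peptide mice (log2 fold change -0.19 ± 0.288). Col4a2 had 1000.4, 1372, 924 and 829 in the control mice and 649, 1001, 1368 and 1029 in the AF1 peptide mice (log2 fold change -0.051 ± 0.220). Again AF1 peptide replicate 1 was the lowest mouse for both, and control replicate 2 was the highest. Their ratio per kilobase was 0.711 in AF1 peptide replicate 1 and 0.843 to 1.25 in the other mice. Without replicate 1 the differences were 0.14 for Col4a1 and 0.15 for Col4a2.

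Both genes lie head to head and are read in opposite directions from starts so close that their annotated first bases overlap by 22 bases. This stretch is shown because strand was not stated for the counting, and reads from it could not be assigned without strand. It starts at the first base of Col4a2 and ends at the first base of Col4a1 on the other strand.
Col4a2 and Col4a1, chr8:11312805-11312826 (GRCm38.p6, + strand): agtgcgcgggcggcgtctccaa
The minor type IV chains were much lower. Col4a5 had 54.4, 46.3, 82.2 and 66.996 in the control mice and 87.7, 51.1, 54.4 and 99.2 in the AF1 peptide mice (log2 fold change 0.20 ± 0.266, or 0.092 without replicate 1). Col4a3 and Col4a4, neighbours that are annotated to overlap and are known from kidney basement membrane, averaged 14.3 ± 2.42 and 24.8 ± 2.65 in the control mice. Unlike Col4a1 and Col4a2, both were highest in AF1 peptide replicate 1, at 34.5 (log2 fold change 0.38 ± 0.357, or 0.10 without replicate 1) and 31.7 (log2 fold change -0.30 ± 0.284, or -0.52 without replicate 1).

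The multiplexins sit at the border of basement membranes and release antiangiogenic fragments, and 0 of the 2 tested were called. Col18a1, the source of endostatin, had 18034, 16274, 18221 and 17112 in the control mice and 21544, 17876, 17579 and 15691 in the AF1 peptide mice (log2 fold change 0.054 ± 0.129). Here AF1 peptide replicate 1 was the highest mouse and replicate 4 the lowest, and without replicate 1 the difference was -0.031. Its 95% interval with all mice ran from -0.23 to 0.34. Col15a1 had 461, 488, 548 and 393 in the control mice and 425, 462, 652 and 483 in the AF1 peptide mice (log2 fold change 0.087 ± 0.152, or 0.16 without replicate 1), with replicate 3 of the AF1 peptide group above the other mice.

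Type VI collagen forms microfibrils that link cells to the matrix, and all 4 of its tested chains had fold changes above 0, with a median of 0.13 and 0 called. With equal totals, 3 of the 4 were above 0. Col6a1 had 569, 620.4, 534 and 411 in the control mice and 311, 548, 825 and 783 in the AF1 peptide mice (log2 fold change 0.13 ± 0.277). Col6a2 had 212, 242, 216 and 169 in the control mice and 125, 177, 332 and 362 in the AF1 peptide mice (log2 fold change 0.13 ± 0.306). Col6a3 had 363, 450.0, 353 and 304 in the control mice and 331, 289, 493 and 453 in the AF1 peptide mice (log2 fold change 0.070 ± 0.186, or 0.14 without replicate 1). For all 3 chains the AF1 peptide replicates 3 and 4 lay above every control mouse. For Col6a1 and Col6a2 replicate 1 lay below every control mouse, while for Col6a3 replicate 2 did.

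Without replicate 1, Col6a1 was called higher (log2 fold change 0.42 ± 0.168, limma, Benjamini-Hochberg adjusted p = 0.485), whereas Col6a2 was not called (log2 fold change 0.41 ± 0.225). Col6a5, a rare alternative chain, had 8.24, 12.8, 11.9 and 11.7 in the control mice and 5.60, 12.8, 17.3 and 51.4 in the AF1 peptide mice, and AF1 peptide replicate 4 stood far above the others. It was called without replicate 1 (log2 fold change 0.98 ± 0.443, limma), on 6 to 56 reads per mouse over all 8. Per kilobase, Col6a1 stood at 3.17 to 4.53 times Col6a2 in the 8 mice.

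FACIT collagens attach to the surface of fibrils, and 0 of the 6 tested were called, with a median of -0.030. Col14a1, which binds type I fibrils, had 1293, 1108, 1027 and 973 in the control mice and 693, 826, 1038 and 1212 in the AF1 peptide mice (log2 fold change -0.25 ± 0.169, or -0.11 without replicate 1). Col12a1, its close relative, had 162, 281, 209 and 153 in the control mice and 164, 192, 202 and 194 in the AF1 peptide mice (log2 fold change -0.060 ± 0.188, or 0.0026 without replicate 1), with control replicate 2 highest. Col16a1 had 176, 147, 148 and 87.1 in the control mice and 107, 121, 152 and 169 in the AF1 peptide mice (log2 fold change 0.00079 ± 0.229, or 0.11 without replicate 1). Col20a1 was the nearest to a call among them, with 90.6, 72.9, 78.9 and 89.6 in the control mice and 120.4, 104, 109.6 and 83.6 in the AF1 peptide mice (log2 fold change 0.32 ± 0.162, or 0.25 without replicate 1). Its AF1 peptide mice except replicate 4 lay above every control mouse. Col22a1 ranged more widely than any other tested member, with 218 in AF1 peptide replicate 1 and 7.31 to 79.8 in the other mice (log2 fold change 0.038 ± 1.01, or -1.002 without replicate 1). Col9a3 averaged 14.7 ± 5.88 in control and 12.1 ± 7.14 in AF1 peptide mice (log2 fold change -0.35 ± 0.432, or -0.13 without replicate 1).

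Col13a1, a transmembrane collagen found at sites of cell adhesion, was the member called with all mice. It had 107, 104, 123 and 145 in the control mice and 67.2, 73.1, 113 and 80.8 in the AF1 peptide mice. The AF1 peptide mice except replicate 3 lay below every control mouse, and replicate 3 lay within the control range. The means were 119.9 ± 18.6 in control and 83.5 ± 20.4 in AF1 peptide mice (SD, n = 4), and the fitted change was 1.45-fold lower (log2 fold change -0.53 ± 0.193, Benjamini-Hochberg adjusted p = 0.763). It stayed under the unadjusted threshold in 7 of the 8 fits that left out 1 mouse. Leaving out control replicate 4, the highest mouse, gave a log2 fold change of -0.44 that was not called, and leaving out AF1 peptide replicate 1 gave -0.44, which was called. An exact permutation test of this gene alone (2-sided) gave p = 0.0857, where the smallest p that 4 against 4 mice allow is 0.0286. The annotation places 4 predicted genes over this locus, and reads shared with them cannot be separated where strand was not used. The 250 bases before its start are shown because it was the called member.
Col13a1, chr10:61979109-61979358 (GRCm38.p6, - strand): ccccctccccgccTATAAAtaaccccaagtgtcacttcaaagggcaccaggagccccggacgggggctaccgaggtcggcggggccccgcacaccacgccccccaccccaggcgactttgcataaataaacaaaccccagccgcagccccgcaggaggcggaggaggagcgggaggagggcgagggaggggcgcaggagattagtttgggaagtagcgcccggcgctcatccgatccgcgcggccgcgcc
Capitals again mark a TATAAA match, 232 to 237 bases before the start, in a stretch with 68.8% G or C. The other tested transmembrane chain, Col23a1, had 9.89, 16.7, 15.1 and 17.6 in the control mice and 12.1, 20.1, 28.8 and 12.9 in the AF1 peptide mice (log2 fold change 0.25 ± 0.344, or 0.41 without replicate 1). Col7a1, the chain of anchoring fibrils, had 27.2, 39.4, 29.2 and 26.8 in the control mice and 31.7, 27.4, 54.4 and 42.2 in the AF1 peptide mice (log2 fold change 0.30 ± 0.260, or 0.38 without replicate 1).

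Among the metalloproteinases 12 of 18 were tested and 0 were called. The median log2 fold change was -0.22 with all mice, with 4 above 0 and 8 below, and 0.084 without AF1 peptide replicate 1. The membrane-type enzymes Mmp14 and Mmp15 were the most abundant per kilobase. Mmp14 had 1656, 2024, 1971 and 2007 in the control mice and 1422, 1503, 2393 and 1885 in the AF1 peptide mice (log2 fold change -0.11 ± 0.159, or -0.012 without replicate 1). Control replicate 1 lay below the 3 other control mice for Mmp14, and AF1 peptide replicate 3 lay above all of them. Mmp15, a relative on the surface of epithelial cells, had 616, 842, 691 and 659 in the control mice and 661, 868, 704 and 804 in the AF1 peptide mice (log2 fold change 0.12 ± 0.127, or 0.18 without replicate 1). Mmp17, also of the membrane type, was low and had 18.95, 15.8, 16.2 and 10.05 in the control mice and 13.1, 10.96, 11.5 and 12.9 in the AF1 peptide mice (log2 fold change -0.28 ± 0.291, or -0.32 without replicate 1).

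The secreted enzymes varied more. Mmp12, the macrophage elastase, had 52.7, 352, 165 and 115 in the control mice and 13.998, 94.98, 186 and 103 in the AF1 peptide mice. Control replicate 2 was highest and AF1 peptide replicate 1 lowest, and the large mean difference stayed within that spread (log2 fold change -0.93 ± 0.747). Without replicate 1 the difference was -0.17. Mmp13, the main interstitial collagenase of rodents, had 6.59, 38.4, 19.5 and 12.6 in the control mice and 5.60, 7.31, 29.7 and 28.5 in the AF1 peptide mice (log2 fold change -0.19 ± 0.634, or 0.21 without replicate 1), with 6.59 to 38.4 within the control group alone. Mmp2, the gelatinase of stromal cells, had 69.2, 104, 63.8 and 41.9 in the control mice and 43.9, 63.9, 74.96 and 99.2 in the AF1 peptide mice (log2 fold change 0.027 ± 0.307, or 0.23 without replicate 1). Its highest and lowest values were both in control mice.

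Mmp19, a broad-spectrum enzyme, had 365, 379, 289 and 267 in the control mice and 396, 258, 171 and 307 in the AF1 peptide mice (log2 fold change -0.25 ± 0.233), and without replicate 1, its highest mouse, the difference was -0.43. Mmp23, which the annotation overlaps with Mib2, had 84.1, 81.7, 60.5 and 56.9 in the control mice and 60.7, 54.8, 104 and 104 in the AF1 peptide mice (log2 fold change 0.15 ± 0.254, or 0.26 without replicate 1). Mmp7, the matrilysin of epithelial cells, had 17.3, 15.8, 23.8 and 37.7 in the control mice and 4.67, 18.3, 38.7 and 23.9 in the AF1 peptide mice (log2 fold change -0.36 ± 0.546, or 0.20 without replicate 1). Mmp11, a stromelysin of stromal cells, had 35.4, 29.5, 20.5 and 23.4 in the control mice and 23.3, 7.31, 28.8 and 30.3 in the AF1 peptide mice (log2 fold change -0.41 ± 0.419, or -0.48 without replicate 1). These were low genes in which AF1 peptide replicate 1 (Mmp7) or replicate 2 (Mmp11) lay far below the rest. Mmp7 rested on 5 to 47 reads per mouse and Mmp11 on 4 to 43, and AF1 peptide replicate 2 had the fewest reads of all libraries. Mmp27 averaged 36.3 ± 15.8 in control and 25.8 ± 13.1 in AF1 peptide mice (log2 fold change -0.59 ± 0.479, or -0.10 without replicate 1). Mmp28 had the largest positive fold change of the members (log2 fold change 1.07 ± 0.623, or 1.03 without replicate 1), but its values of 11.5, 0.985, 7.57 and 16.7 in the control mice and 16.8, 9.13, 18.1 and 20.2 in the AF1 peptide mice overlapped and rested on 1 to 22 reads per mouse.

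Of the 3 TIMPs 0 were called. Timp3, the matrix-bound inhibitor, was the most abundant, with 691, 864, 788 and 891 in the control mice and 725, 857, 1062 and 1024 in the AF1 peptide mice (log2 fold change 0.17 ± 0.139). AF1 peptide replicates 3 and 4 lay above every control mouse, and without replicate 1 the difference was 0.28 ± 0.119, which is under 1.3-fold. Timp2, which takes part in the activation of pro-MMP2 by MMP14, had 205, 299, 231 and 166 in the control mice and 166, 153, 224 and 241 in the AF1 peptide mice (log2 fold change -0.19 ± 0.206, or -0.12 without replicate 1). Timp1, the inhibitor commonly raised in fibrotic liver, was low, with 23.9, 60.1, 58.4 and 30.1 in the control mice and 11.2, 21.9, 65.9 and 41.3 in the AF1 peptide mice (log2 fold change -0.46 ± 0.508, or -0.027 without replicate 1). Its lowest and highest values were both in AF1 peptide mice. Timp1 and Timp3 are annotated within Syn1 and Syn3, genes of neurons.

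All 5 lysyl oxidases were tested and 0 were called, with a median of 0.031, 3 above 0 and 2 below. With equal totals 1 was above 0 and 4 below, with a median of -0.059, where that of all genes tested was -0.099. With edgeR or DESeq2 5 were above 0. Loxl2, which acts on type IV collagen among others, had 173, 198, 169.7 and 134 in the control mice and 88.7, 172, 237 and 200.2 in the AF1 peptide mice (log2 fold change -0.026 ± 0.272, or 0.27 without replicate 1), and 45% of its 50-base words are shared with transcripts annotated to other genes. Loxl3 had 116, 121, 160.0 and 142 in the control mice and 86.8, 153, 200.2 and 130.4 in the AF1 peptide mice (log2 fold change 0.031 ± 0.235, or 0.25 without replicate 1). Loxl1, which acts mainly on elastin, had 61.8, 123, 63.8 and 36.01 in the control mice and 31.7, 78.5, 86.5 and 119 in the AF1 peptide mice (log2 fold change 0.14 ± 0.432, or 0.52 without replicate 1). Lox itself had 14.01, 16.7, 7.57 and 2.51 in the control mice and 1.87, 10.96, 9.89 and 20.2 in the AF1 peptide mice (log2 fold change -0.0046 ± 0.682, or 0.57 without replicate 1), on 2 to 22 reads per mouse. AF1 peptide replicate 1 was the lowest mouse for these 4 genes. Loxl4, with 57.7, 52.2, 47.6 and 32.7 in the control mice and 47.6, 38.4, 59.3 and 48.7 in the AF1 peptide mice (log2 fold change 0.042 ± 0.228, or 0.045 without replicate 1), did not have this order. Without replicate 1 all 5 fold changes were above 0, with a median of 0.27 and 0 called.

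The partners of collagen in the cell and the matrix were read from lists of textbook genes. In collagen folding and modification, 0 of 18 tested genes were called and the median log2 fold change was -0.019. P4hb, the β subunit of prolyl 4-hydroxylase and its most abundant gene, averaged 40224 ± 3471 in control and 36603 ± 4407 in AF1 peptide mice. Plod2, the lysyl hydroxylase of telopeptides, had 37.1, 37.4, 24.9 and 32.7 in the control mice and 25.2, 45.7, 52.7 and 76.2 in the AF1 peptide mice (log2 fold change 0.50 ± 0.316), and it was called higher without AF1 peptide replicate 1 (0.78). Ppib, a prolyl isomerase for collagen, had the smallest p of the list (log2 fold change -0.34 ± 0.202, or -0.40 without replicate 1).

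In procollagen cleavage and fibril assembly, 0 of 14 tested genes were called higher and 1 lower. This was Dcn, or decorin, a proteoglycan that binds collagen fibrils, with 1836, 2016, 1412 and 1822 in the control mice and 1345, 919, 1494 and 1612 in the AF1 peptide mice (log2 fold change -0.42 ± 0.177, or -0.43 without replicate 1, Benjamini-Hochberg adjusted p = 0.763). Tnxb was called higher without replicate 1 (0.39), and Fn1, or fibronectin, averaged 13376 ± 990.3 in control and 13711 ± 2416 in AF1 peptide mice. In TGF-β signalling, the pathway best known to induce collagen genes, 0 of 19 were called and the median was -0.073. Tgfbr1, a receptor of the pathway, was not called and did not overlap between the groups (log2 fold change -0.21 ± 0.111, or -0.24 without replicate 1). The same lack of overlap was seen in 3.9% of all genes tested. Ltbp4 was the most abundant of that list, with 1353 ± 111 in control and 1413 ± 139 in AF1 peptide mice.

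In other basement membrane proteins, 0 of 15 tested genes were called higher and 1 lower. This was Nid1, or nidogen 1, which links laminin to type IV collagen, with 279, 665, 356 and 402 in the control mice and 159, 206, 337 and 339.8 in the AF1 peptide mice (log2 fold change -0.70 ± 0.301, Benjamini-Hochberg adjusted p = 0.763). Without replicate 1 it was not called (-0.49). Lama3 had a log2 fold change 0.84 ± 0.418, or 0.47 without replicate 1, with its highest value in replicate 1, and Agrn, the most abundant, averaged 2385 ± 210.2 in control and 2449 ± 261 in AF1 peptide mice. Lamc3, a laminin chain, was called higher without replicate 1 (0.45). In the plasminogen system and other regulators of metalloproteinases, 0 of 8 tested genes were called (Plg 20636 ± 3073 in control and 21132 ± 5785 in AF1 peptide mice, Reck log2 fold change 0.29 ± 0.302, or -0.027 without replicate 1, Bsg log2 fold change -0.10 ± 0.116, or -0.091 without replicate 1). In collagen receptors and uptake, 0 of 12 were called. Itgb1 (log2 fold change -0.21 ± 0.103, or -0.19 without replicate 1) and Mrc1 (log2 fold change -0.31 ± 0.181, or -0.20 without replicate 1) had the smallest p values, and Ctsb averaged 16399 ± 2133 in control and 15950.4 ± 1828 in AF1 peptide mice. Ctsl, or cathepsin L, was called lower without replicate 1 (-0.51), with its highest value in that mouse.

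Fibrillar collagen genes are expressed mainly by minor cells of the liver, so markers of those cells were read in the same mice. The 14 hepatic stellate cell markers summed to 8786 to 10663 in the control mice, 8608 in AF1 peptide replicate 1 and 8959 to 13003 in the other AF1 peptide mice. Of them 1 was called, Gfap, which was lower and had few reads, with 19.8, 11.8, 17.3 and 18.4 in the control mice and 7.47, 5.48, 11.5 and 6.43 in the AF1 peptide mice (log2 fold change -1.05 ± 0.333, or -1.05 without replicate 1), and Hhip came next (log2 fold change -0.79 ± 0.382, or -1.02 without replicate 1). Without replicate 1, Gfap and Hhip were called lower and Hand2 and Cygb higher (0.39 and 0.41). The 10 portal fibroblast markers summed to 942 to 1103 in the control mice, 777 in AF1 peptide replicate 1 and 917 to 1206 in the other AF1 peptide mice. Replicate 1 was the lowest mouse for 6 of the 7 tested, for 3 of the 14 stellate cell markers and for 23.4% of all genes tested. The 5 markers of activated stellate cells and myofibroblasts summed to 354, 334, 320.0 and 296 in the control mice and 401, 339.7, 577 and 609.8 in the AF1 peptide mice. Among these Myh11, the smooth muscle myosin, was called higher, with 114, 122, 102 and 107 in the control mice and 172, 142, 200.2 and 179 in the AF1 peptide mice (log2 fold change 0.63 ± 0.142, or 0.63 without replicate 1, Benjamini-Hochberg adjusted p = 0.763). Acta2, the smooth muscle actin, was called higher as well without replicate 1, with 120.3, 114, 110.3 and 82.1 in the control mice and 105, 96.8, 223 and 249 in the AF1 peptide mice (log2 fold change 0.54 ± 0.306, or 0.73 without replicate 1).

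For most fibrillar chains AF1 peptide replicate 1 was the lowest mouse, and it was also the lowest for the sums of 11 of the 13 marker lists, all but those of myofibroblasts and mesothelium. These sums weigh abundant genes most. By gene, replicate 1 was lowest for 3 of 14 stellate cell and 3 of 10 sinusoidal endothelial markers, against 23.4% of all genes tested. Its median log2 deviation from the control mean was 0.22 for hepatocyte and -2.45 for mesothelium markers. The myofibroblast sum of replicate 1 lay above every control mouse. Replicates 3 and 4 had the highest myofibroblast sums. The portal fibroblast sum lay within the control range in replicate 3 (1044) and above every control mouse in replicate 4 (1206). The stellate cell sum lay above every control mouse in replicate 3 (13003) and within the control range in replicate 4 (10252). The part of these cells in the collagen values was not tested. Of 10 Kupffer cell and macrophage markers, replicate 1 was the lowest mouse for 9, and Adgre1 was called lower with all mice (log2 fold change -0.66 ± 0.269) and not without replicate 1 (-0.45). With all mice 2 of the 10 had fold changes above 0 and 8 below, with a median of -0.24. Without replicate 1, 6 were above 0 and 4 below, with a median of 0.049. The 6 lipid-associated macrophage markers summed to 2872 to 4799.7 in the control mice, 1952 in AF1 peptide replicate 1 and 2517 to 4447 in the other AF1 peptide mice, and the 5 neutrophil markers to 159.9 to 237 in the control mice, 62.5 in AF1 peptide replicate 1 and 153 to 278 in the other AF1 peptide mice. Mmp12, a macrophage gene, was 1 of the 25 tested members with their lowest value in replicate 1. The part of macrophages in its values was not tested. The 10 sinusoidal endothelial markers summed to 9276 to 10495 in the control mice, 8951 in AF1 peptide replicate 1 and 9538 to 11946 in the other AF1 peptide mice, with Stab1 higher by less than 1.3-fold (log2 fold change 0.28 ± 0.114, or 0.31 without replicate 1). The 6 vascular endothelial markers summed to 1707 to 1911 in the control mice, 1405 in AF1 peptide replicate 1 and 1498 to 2137 in the other AF1 peptide mice.

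The 9 hepatocyte markers summed to 2497505 to 2679535 in the control mice, 1879676 in AF1 peptide replicate 1 and 2181184 to 2652216 in the other AF1 peptide mice. Most of this sum was Alb, with 1895781, 1997674, 1807968 and 1859536 in the control mice and 1224159.7, 1989763, 1511745 and 1780991 in the AF1 peptide mice, and replicate 1 was the highest mouse for 5 of the 9 markers and the lowest for 4. The 6 cholangiocyte markers summed to 642 to 812 in the control mice, 540.3 in AF1 peptide replicate 1 and 755 to 807 in the other AF1 peptide mice, and the 10 lymphocyte markers to 242 to 376 in the control mice, 219 in AF1 peptide replicate 1 and 239.7 to 329.5 in the other AF1 peptide mice. The 3 adipocyte markers in the table summed to 6672 to 10661 in the control mice, 2444 in AF1 peptide replicate 1 and 8164 to 9529.6 in the other AF1 peptide mice, with the lipid droplet gene Cidec at 243 in replicate 1 and 3542 or more elsewhere. Nearly all of this sum came from Cidec and Plin4, and Adipoq, Plin1 and Lep of that list had no values. The sum need therefore not measure adipocytes. The 6 markers of mesothelium and capsule summed to 7413 to 17339 in the control mice, 7971 in AF1 peptide replicate 1 and 7378 to 10464 in the other AF1 peptide mice, nearly all of it from Krt8, which hepatocytes express as well. The share of reads from mitochondrial genes was 20.8% in AF1 peptide replicate 1, 22.4% to 34.3% in the control mice and 34.3% to 37.8% in the other AF1 peptide mice, and its part in the results was not tested either.

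**Figure D5:**
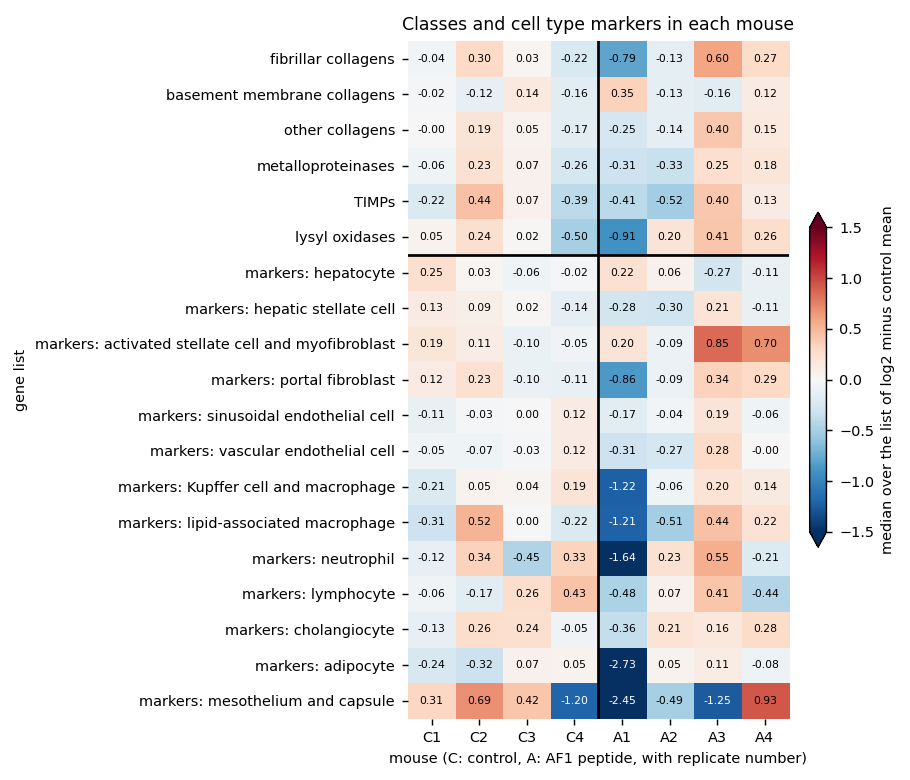
Median over each gene list of the deviation from the control mean on the log2(normalized count + 1) scale, for the 6 classes of members (above the line) and 13 lists of cell type markers (below it), in each mouse (C, control; A, AF1 peptide). AF1 peptide replicate 1 (A1) has medians of -0.79 for fibrillar collagens and -0.91 for lysyl oxidases. Over the marker lists its medians run from -2.73 for the adipocyte list to 0.22 for the hepatocyte list. They are -0.28 for hepatic stellate cell, -0.86 for portal fibroblast and -1.22 for macrophage markers.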

How the data were processed

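The authors used TrimGalore 0.6.7 for trimming, HISAT2 for alignment, SAMtools 1.17 for sorting and GenomicAlignments for counting reads by gene. The table they deposited holds 1 signal value for each gene in each mouse, a normalized count equal to the reads over the size factor of that library. The build is mm39 per the submitters' processing notes. Whether strand was used in counting, and what was done with reads matching more than 1 gene, is not given in the sources used here. All 172256 values came back as whole reads (within 0.01 of a read) once the size factors were recovered, at 23031880 to 45117528 reads per mouse. No column was left out.

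Samples were grouped by their labels, 4 mice in each group. The log2(normalized count + 1) of the 15989 genes averaging 10 or more was fitted with limma 3.58.1 (with intensity trend, R 4.3.3), and p values were adjusted over all of them by the Benjamini-Hochberg method. A gene was called at an unadjusted p under 0.05 and more than 1.3-fold. The scripts were tested on simulated data. Levels per kilobase used exon lengths of GENCODE M21 on GRCm38, and promoter coordinates are on the build printed beside them. The members and the gene lists were chosen with earlier results of these data known. Values in every mouse were given for the called members, the 3 most abundant of each class and textbook liver members. From each pathway list the called genes, the 2 with the smallest p and the most abundant were named, except 1 gene that is not reported here, and from the marker lists the called genes, where the same rule would have named more. Genes called only without AF1 peptide replicate 1 were added after their values were seen.

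Tried as alternatives were a pseudocount of 0.5 or 5, no filter or at least 10 in every mouse, TMM scaling, equal totals, limma without the trend, a separate variance for each gene, a replicate block, edgeR 4.0.16 or DESeq2 1.42.0 with the recovered reads as input, no fold threshold, and leaving out each mouse.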

Additional observations from a re-analysis of the deposited data

Results flagged for a closer look

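Of 104 groups of 4 mice checked for a value far from the others, 3 stood out, where chance gives about 1 in 20 groups, or 5.2. Mmp14 was lowest in control replicate 1, with a gap to the next control mouse of 0.867 of the range of the group. The number of reads was highest in control replicate 1, with a gap of 0.857 of the range. The first principal component set AF1 peptide replicate 1 apart from the other AF1 peptide mice, with a gap of 0.843 of the range. This is the mouse without which Col27a1, Col6a1 and Col6a5 were called higher.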

How the results depend on the processing

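Over 19 alternatives the calls of 41 of the 49 tested members never changed, and 9 changes were found in the other 8. With all mice 0 members were called higher and 1 (Col13a1) lower. Leaving out 1 mouse, the count called higher ran from 0 to 3, with 3 (Col27a1, Col6a1 and Col6a5) without AF1 peptide replicate 1, 1 (Mmp28) without control replicate 4 and 1 (Col20a1) without AF1 peptide replicate 4. The count called lower ran from 0, without control replicate 4, to 2 (Col13a1 and Col14a1), without AF1 peptide replicate 4. With the replicate block, 1 was called higher (Mmp28) and 2 lower (Col13a1 and Mmp12), and no other call changed. The fold change of Col27a1 was just below 0 with all mice and was called above 0 without AF1 peptide replicate 1. Over the mice left out it ran from -0.34 to 0.45 on the log2 scale, and it was 0.15 with edgeR and 0.16 with DESeq2, uncalled. The cause was not tested. The counts were 0 and 1 under the other pseudocounts, filters, scalings, variance models and tools and with no fold threshold, and 0 members had an adjusted p under 0.05 by limma, edgeR or DESeq2. The median log2 fold change of the members ran from -0.12 without control replicate 4 to 0.15 without AF1 peptide replicate 1. Scaling to equal totals gave 122 genes called higher and 602 lower over all genes tested, in place of 286 and 304.

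The groups share replicate numbers, but nothing in the labels says that a number marks a shared litter, batch or day. Deviations of same-numbered mice correlated at 0.24, 0.024, 0.22 and -0.064, and not every mouse correlated best with its own number, so the fits with the replicate block serve as an alternative only. Low members rested on few reads, such as Lox with 2 to 22 per mouse, and their spread between mice was large as well.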
